A study of Mus musculus with 10 samples.

Results

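The genes described here encode the kinases and adaptors that switch on NF-kB: the kinases Ikbkb, Chuk and Ikbke, the regulatory subunit Ikbkg, the NF-kB-inducing kinase Map3k14, the adaptors Traf1, Traf2 and Traf3, and the ubiquitin ligases Birc2 and Birc3. They were chosen by name, as the machinery around the kinase that the mouse model activates, with earlier results of these data known. They are 10 of the 46316 genes in the count table. All 10 were among the 17718 genes with enough counts to be tested. RNA came from sorted B220+ reporter+ spleen cells of 10 C57BL/6 mice. The pBIC10 group (n = 3, 2 females and 1 male) carried p53F/F, Blimp1F/F, IKK2castopF/stopF, Cg1Cre/+ and IL-10F/F and developed a lymphoma, labelled IL-10-deficient ABC-DLBCL, a model of the activated B cell-like subtype of a common aggressive lymphoma of B cells. The pBIC group (n = 3, all female) had the same alleles without IL-10F/F. The control group YC (n = 4, 3 females and 1 male) carried YFPstopF/+ and Cg1Cre/+. These control mice had no lymphoma. They were immunised with sheep red blood cells and again 20 days later, and their germinal centre B cells were collected 10 days after that. All groups therefore carried Cre at the Cγ1 locus, which is active mainly in B cells of the germinal centre. Lymphoma mice were moribund at collection. The labels of YC give lymphoma wording in several fields, and here the design text of the series was used instead.

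NF-kB is a family of transcription factors held inactive in resting cells. In the canonical route, receptors recruit TRAF adaptors and cIAP ubiquitin ligases, and the chains these build activate a complex of IKK2 (Ikbkb), IKK1 (Chuk) and NEMO (Ikbkg), which marks the inhibitor IkB for destruction. In the alternative route TRAF3, TRAF2 and the cIAPs keep NIK (Map3k14) low by marking it for destruction. When a receptor such as CD40 or the BAFF receptor draws them away, NIK builds up and activates IKK1, which drives processing of the precursor made by Nfkb2. Both routes support survival of B cells, and several of these genes are altered in human B cell lymphomas.

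The libraries held 12.59 to 14.33 M counts in YC, 17.8 to 19.13 M in pBIC and 17.1 to 18.58 M in pBIC10. The authors re-analysed the pBIC and YC libraries from an earlier series and added the pBIC10 libraries, so in each comparison with pBIC10 the group and the series of origin cannot be told apart. In all 3 pBIC10 libraries Ighv7-3 took 67.4% to 70.5% of the counts of heavy chain variable segments, and in all 3 pBIC libraries Ighv8-11 took 51.6% to 59.1%. The 4 YC libraries had 4 different leading segments, at 3.73% to 10.9%. Whether the libraries of a lymphoma group share a clone was not tested. If they do, they are not independent tumours. The p-values rest on a spread between libraries estimated over all 10, and would then not cover the spread between tumours. The 10 B cell markers were all detected in each group, with summed levels of 18547 to 22416 CPM (read counts scaled to a common library total) in YC, 9396 to 11282 in pBIC and 5422 to 11698 in pBIC10. The 10 germinal centre markers summed to 939 to 1648 CPM in YC, 141 to 242 in pBIC and 121 to 237 in pBIC10. In pBIC against YC 9 of them fell and 1 rose, and in pBIC10 against YC 9 fell and 0 rose. Cd38, counted among them, went the other way and made up much of the sum in pBIC. Its mean was 41.0 CPM in YC, 118 in pBIC and 57.7 in pBIC10. The 12 T cell markers summed to 463 to 754, 81.4 to 126 and 144 to 233 CPM in the same order, and none of them was at 0 in a whole group. In pBIC10 against pBIC, 9 of these 12 fell and 2 rose (median -2.17). Cd2 (35.8 CPM in pBIC, 152 in pBIC10) and Lck (14.4 and 43.9) made up most of the sum in pBIC10. The 12 myeloid markers summed to 133 to 258, 27.2 to 99.9 and 25.4 to 38.9 CPM. The 8 NK cell markers summed to 32.3 to 83.1, 5.94 to 18.3 and 1.33 to 3.42 CPM, with Klra8 at 0 in pBIC10. The 7 erythroid markers summed to 184 to 544, 32.8 to 662 and 631 to 1629 CPM. Cd3e, which defines T cells, had means of 16.2, 1.53 and 0.363 CPM. The part of these cell types in the differences described below was not tested.

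Levels below are CPM after TMM scaling, and a difference is a log2 fold change with its approximate standard error (SE), fitted over all 10 libraries with edgeR. Genes with an adjusted p under 0.05 in edgeR's quasi-likelihood test (Benjamini-Hochberg over all tested genes) were called, and "rose" and "fell" are used only of called genes. Against YC, 6 of the 10 genes were called in pBIC (3 higher, 3 lower). Of all tested genes 54.1% were called there, 26.4% higher and 27.7% lower. In pBIC10 against YC, 8 of 10 were called (4 higher, 4 lower), beside 51.7% of all tested genes, 24.8% higher and 26.9% lower. Between the lymphomas, 6 of 10 were called in pBIC10 against pBIC (3 higher, 3 lower), beside 30.7% of all tested genes, 15.6% higher and 15.1% lower. The 3 higher members were 1 without pBIC10 replicate 1, pBIC10 replicate 2 or pBIC replicate 2, and 5 without pBIC replicate 1. Without pBIC replicate 2, 5 members were higher in pBIC against YC. The libraries of the compared groups did not overlap for 6 genes in pBIC against YC, 9 in pBIC10 against YC and 7 in pBIC10 against pBIC. Of all tested genes, 54.2%, 61.0% and 41.8% had no overlap in these comparisons. Both comparisons with YC share the same 4 control libraries. The median difference of the 10 genes was -0.14 in pBIC against YC, -0.21 in pBIC10 against YC and 0.05 in pBIC10 against pBIC, beside 0.02, 0.01 and -0.01 over all tested genes. In bulk RNA such as this, fewer cells of a type and less RNA per cell cannot be told apart.

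**Figure D1:**
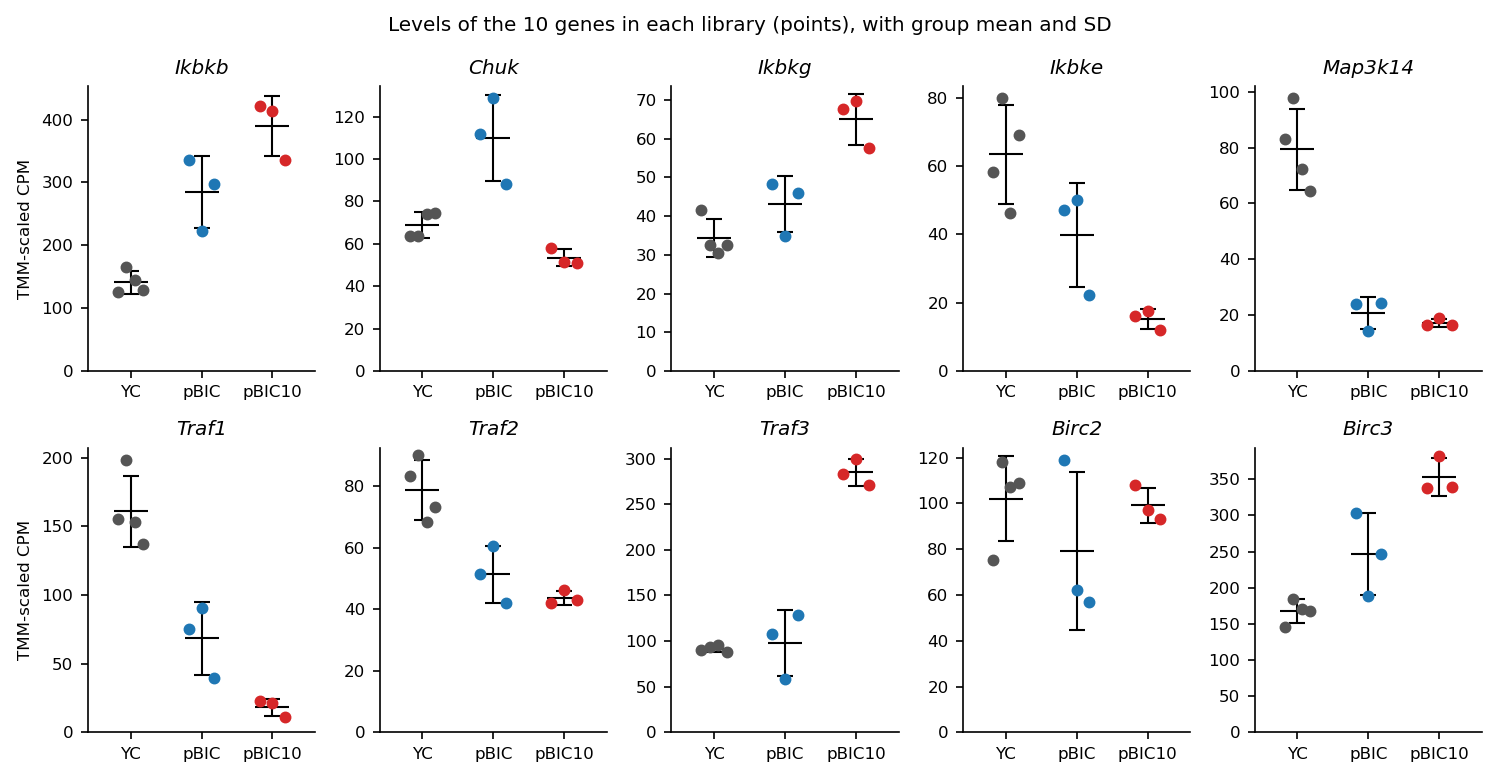
TMM-scaled CPM (vertical axes, from 0) of the 10 genes in each library of YC, pBIC and pBIC10. Points are libraries, and black bars are the group mean and SD. Traf3 stands at 271 CPM or more in the 3 pBIC10 libraries and at 129 or less in the other 7, while Traf1 and Map3k14 are highest in YC.

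Ikbkb, the catalytic subunit that carries the activating change in this model, was highest in the lymphomas. Its level was 126, 166, 144 and 129 CPM in the 4 YC libraries, 334.5, 223 and 298 CPM in pBIC and 422, 414 and 335.3 CPM in pBIC10. Every lymphoma library lay above every control, and the highest pBIC library was just under the lowest pBIC10 library. Ikbkb rose 2.02-fold in pBIC (log2 1.01 ± 0.17 SE, adjusted p = 0.00035) and 2.76-fold in pBIC10 (1.47 ± 0.17, adjusted p = 2.25e-05) against YC. Between the lymphomas the libraries did not overlap, but the difference of 0.45 ± 0.19 was not called (adjusted p = 0.0818), and leaving out pBIC replicate 1 gave 0.60 with an adjusted p of 0.032. Counts per gene do not separate transcripts of the IKK2ca allele from those of the endogenous gene.

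Chuk, the IKK1 subunit that acts downstream of NIK, had another order of groups. Its level was 63.8, 63.7, 74.2 and 74.4 CPM in YC, 112, 129 and 88.2 CPM in pBIC and 58.2, 51.5 and 50.8 CPM in pBIC10. All pBIC libraries were above the controls and all pBIC10 libraries below them. Chuk rose 1.59-fold in pBIC against YC (adjusted p = 0.00353) and fell 2.05-fold in pBIC10 against pBIC (-1.03 ± 0.17, adjusted p = 0.000674). The difference of pBIC10 from YC was -0.37 ± 0.16 (adjusted p = 0.0729). It was called in 5 of 21 alternatives, whose adjusted p ran from 0.0174 to 0.308, among them the one without pBIC replicate 3 (adjusted p = 0.0491).

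Ikbkg, which encodes the scaffold NEMO that binds ubiquitin chains, was at 41.6, 32.6, 30.6 and 32.5 CPM in YC, 48.4, 34.9 and 46.1 CPM in pBIC and 67.6, 69.8 and 57.6 CPM in pBIC10. The pBIC10 libraries stood above all others, and pBIC overlapped YC. Ikbkg rose in pBIC10 against YC (0.92 ± 0.17, adjusted p = 0.000707) and against pBIC (0.59 ± 0.19, adjusted p = 0.0289). The second call was lost in 5 of 21 alternatives, among them leaving out pBIC10 replicate 1 (adjusted p = 0.0812), pBIC10 replicate 2 (0.0965) or pBIC replicate 2 (0.109). The difference of pBIC from YC (0.33 ± 0.17, adjusted p = 0.128) was called without pBIC replicate 2 (0.52, adjusted p = 0.0231). Ikbkg overlaps G6pdx on the opposite strand over 5.15% of its exon bases, and no strand setting is given in the sources used here, so a part of its reads could belong to G6pdx.

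Ikbke encodes IKKε, a relative of the complex that acts with TBK1 in interferon responses. Its level was 58.4, 80.1, 46.3 and 69.2 CPM in YC, 47.1, 50.02 and 22.2 CPM in pBIC and 16.1, 17.6 and 11.9 CPM in pBIC10. The pBIC10 libraries were below all others, and pBIC overlapped YC. Ikbke fell 4.17-fold in pBIC10 against YC (-2.06 ± 0.30, adjusted p = 9.65e-05) and 2.61-fold against pBIC (-1.39 ± 0.30, adjusted p = 0.00384). In pBIC against YC it differed by -0.67 ± 0.28 (adjusted p = 0.0554) and was called in 11 of 21 alternatives, among them leaving out pBIC replicate 2 (-0.81, adjusted p = 0.0477) or YC replicate 3 (-0.81, adjusted p = 0.0345). Over the 21 alternatives the adjusted p ran from 0.0233 to 0.186.

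Map3k14, which encodes NIK, fell in both lymphomas. Its level was 83.1, 97.9, 72.2 and 64.3 CPM in YC, 23.8, 14.4 and 24.4 CPM in pBIC and 16.5, 18.9 and 16.5 CPM in pBIC10. All controls were above all lymphoma libraries, and the lymphomas overlapped each other. Map3k14 fell 3.81-fold in pBIC (-1.93 ± 0.22, adjusted p = 1.97e-05) and 4.6-fold in pBIC10 (-2.20 ± 0.23, adjusted p = 7.58e-06) against YC. The lymphomas differed by -0.27 ± 0.23 (adjusted p = 0.392). These are transcript levels, and NIK is known to be controlled largely through the stability of its protein, which was not measured.

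**Figure D2:**
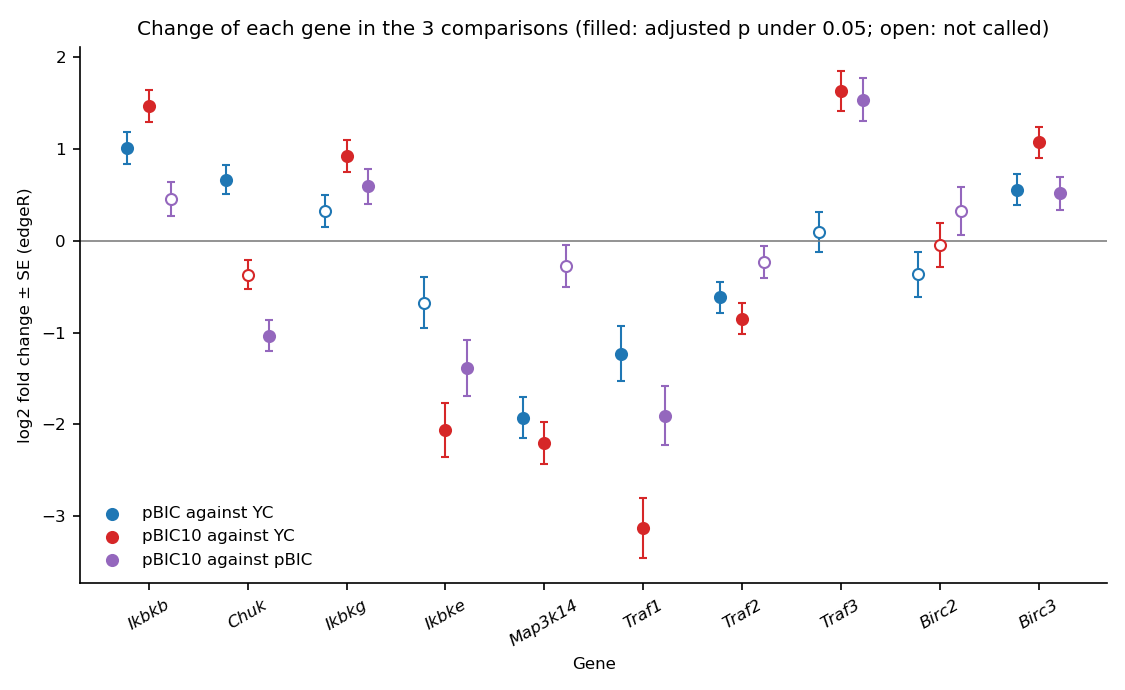
Log2 fold changes (vertical axis) of the 10 genes (horizontal axis) in the 3 comparisons, with bars of 1 standard error and filled points for genes called at an adjusted p under 0.05. Traf1 has the lowest value in pBIC10 against YC, at -3.13, and Traf3 the highest, at 1.63.

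The adaptors of the TRAF family split by member. Traf1, an NF-kB target that binds TRAF2 and lacks the ligase domain of its relatives, was at 155, 198, 153 and 137 CPM in YC, 75.4, 90.8 and 39.4 CPM in pBIC and 22.5, 21.4 and 11.02 CPM in pBIC10. The groups formed separate steps, with no overlap between any pair. Traf1 fell 2.34-fold in pBIC (-1.23 ± 0.30, adjusted p = 0.00404) and 8.78-fold in pBIC10 (-3.13 ± 0.33, adjusted p = 1.14e-05) against YC. It also fell 3.75-fold in pBIC10 against pBIC (adjusted p = 0.000827). Traf2, the adaptor that brings the cIAPs to receptors, was at 83.5, 90.2, 68.5 and 73.4 CPM in YC, 51.5, 60.6 and 42.2 CPM in pBIC and 42.1, 46.4 and 42.9 CPM in pBIC10. All controls were above all lymphoma libraries. Traf2 fell in pBIC (-0.62 ± 0.17, adjusted p = 0.00745) and in pBIC10 (-0.85 ± 0.17, adjusted p = 0.00102) against YC, and the lymphomas differed by -0.23 ± 0.18 (adjusted p = 0.352).

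Traf3, the adaptor that holds NIK for destruction, was at its highest in pBIC10. Its level was 90.2, 93.9, 95.4 and 88.2 CPM in YC, 108, 58.0 and 129 CPM in pBIC and 283, 300.5 and 271 CPM in pBIC10. The pBIC libraries lay on both sides of the controls, and every pBIC10 library was above all others. Traf3 rose 3.1-fold in pBIC10 against YC (1.63 ± 0.21, adjusted p = 5.05e-05) and 2.9-fold against pBIC (1.54 ± 0.23, adjusted p = 0.000342), and both calls held in 21 of 21 alternatives. In pBIC against YC the difference was 0.09 ± 0.21 (adjusted p = 0.729). It was called without pBIC replicate 2 (0.42, adjusted p = 0.0224) and was -0.15 without pBIC replicate 3.

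The Traf3 promoter is printed because Traf3 was the 1 member with a match to the kappaB consensus, the motif bound by NF-kB, in the window searched. Of 2 related forms also searched, 1 matched Traf2 and Traf3 and the other matched 0 members. The first matched 1.63% of all promoters and 1.78% of those of tested genes, and the second 1.75% and 2.27%. These forms are not spelled out here, and each can match sequences that the consensus does not. RefSeq promoters (build GRCm38.p6, 250 bases before to 50 after the start) were found for 9 of the 10 members, with 13 promoters in all. Ikbkb had none in the set used and was not searched. Both strands were searched. The bases before the Traf3 start, chr12:111166120-111166369 on the plus strand, end in the match, shown in capitals.
Traf3 upstream: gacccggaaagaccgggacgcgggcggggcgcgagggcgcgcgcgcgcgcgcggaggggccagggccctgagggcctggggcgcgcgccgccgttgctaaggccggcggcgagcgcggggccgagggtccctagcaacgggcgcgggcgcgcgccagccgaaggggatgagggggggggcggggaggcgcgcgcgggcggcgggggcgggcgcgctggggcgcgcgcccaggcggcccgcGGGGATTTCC
The match begins 10 bases before the start. Of 32851 promoters of this length, 8.46% held a match to the same consensus, and 10.2% of the promoters of tested genes did. A match describes letters in the window and shows no binding.

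Genes beside Traf3 on chromosome 12 were also higher in pBIC10, a pattern examined after the values of Traf3 were seen. Of the 20 tested protein-coding genes nearest in order (10 on each side), 14 rose and 1, Tnfaip2, fell in pBIC10 against pBIC, with a median of 1.16. Leaving out any 1 library gave 13 to 15 higher and a median of 1.10 to 1.22. Against YC, 16 rose and 1 fell in pBIC10, while in pBIC 5 rose and 4 fell, with a median of -0.18. These counts for pBIC against YC were 3 higher and 2 lower without pBIC replicate 3 or YC replicate 3, 3 and 3 without YC replicate 1 or 4, and 4 and 2 without pBIC replicate 2. The lower call of Tnfaip2 in pBIC10 against pBIC was lost without any 1 of the pBIC10 libraries or pBIC replicate 2. Rcor1, the corepressor gene next to Traf3, was at 83.1 ± 13.2 CPM (SD, n = 4) in YC, 73.7 ± 13.8 (n = 3) in pBIC and 390 ± 56.5 (n = 3) in pBIC10. Hsp90aa1, which encodes a chaperone of the IKK complex, was at 731 ± 32.2, 833 ± 328 and 1849 ± 171 CPM in the same order. The 12218 placed genes were divided into runs of 20 in order along their chromosomes, and shorter runs at chromosome ends were left out. Of the 604 full runs, 9 (1.49%) had a median of at least 1 in pBIC10 against pBIC. Among the 21 runs of chromosome 12 there were 3 of these, the last 3 in order. Traf3 was counted in its own run, whose median without Traf3 was 1.24. The runs after it, Ckb to Clba1 and Cdca4 to Sp4, had larger medians of 2.556 and 2.355. Medians of the runs before it lay between -0.908 (Gstz1 to Kcnk10) and 0.985 (Spata7 to Atxn3). The rise was therefore not centred on Traf3. Why the genes beside and after Traf3 were higher together was not tested. In the same comparison the medians of the neighbours of the other 9 members, counted the same way, ran from -0.36 (Traf1) to 0.37 (Ikbkg).

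**Figure D3:**
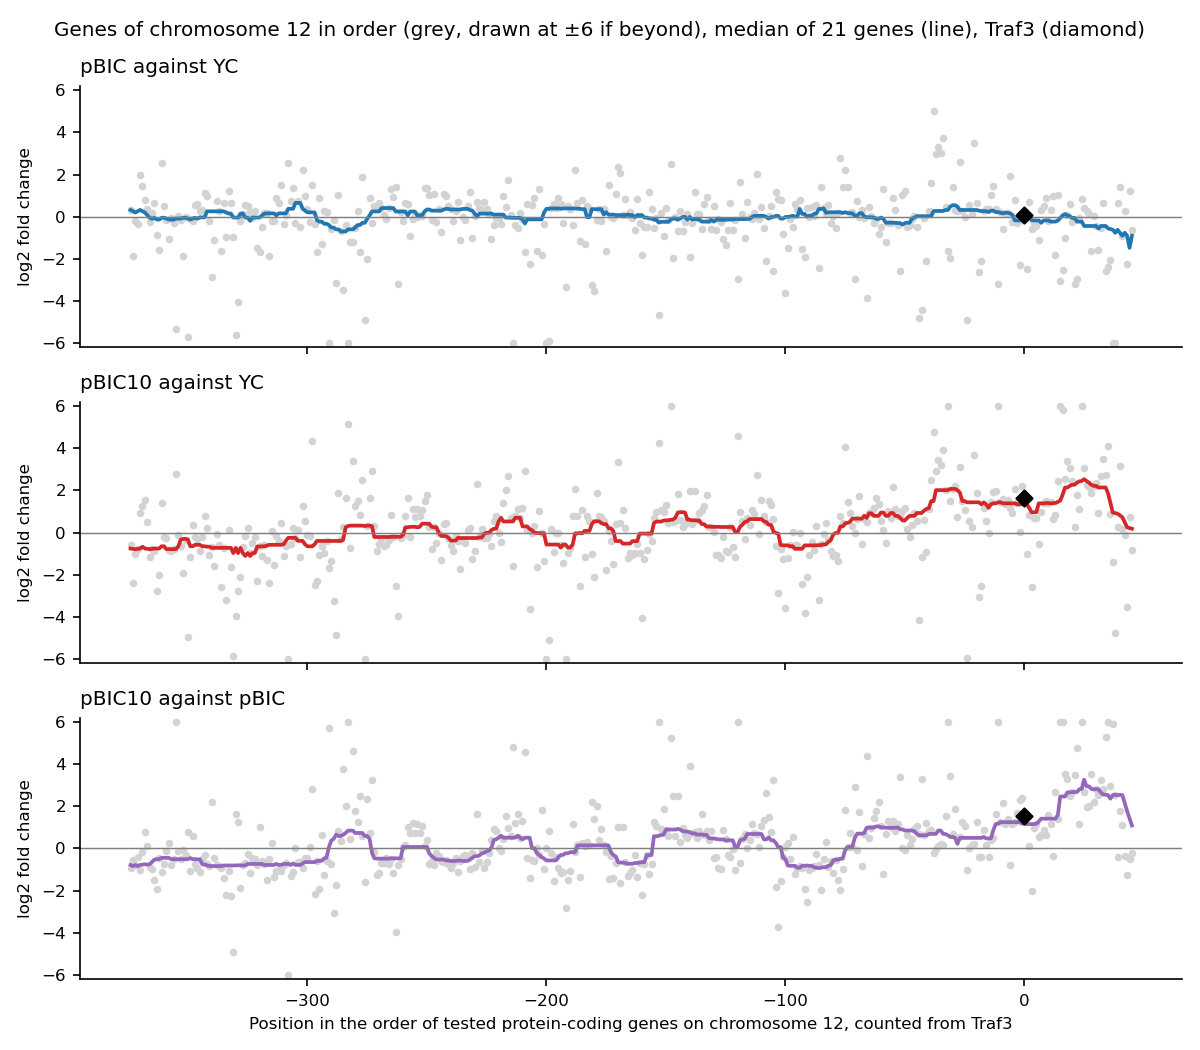
Log2 fold changes (vertical axes) of the tested protein-coding genes of chromosome 12 in order (horizontal axis, gene positions counted from Traf3), 1 panel for each comparison. Grey points are genes, the line is the running median of 21 genes and the diamond is Traf3. The line is raised around and after Traf3 in both comparisons of pBIC10 and not in pBIC against YC.

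The cIAPs are close relatives encoded by neighbouring genes. Birc2 (cIAP1) was at 75.3, 118, 107 and 109 CPM in YC, 119, 62.2 and 56.9 CPM in pBIC and 108, 96.9 and 93.0 CPM in pBIC10. The 3 groups overlapped throughout. Its differences were -0.37 ± 0.24 in pBIC against YC (adjusted p = 0.219), -0.04 ± 0.24 in pBIC10 against YC (adjusted p = 0.892) and 0.32 ± 0.26 in pBIC10 against pBIC (adjusted p = 0.374). Leaving out pBIC replicate 1, the highest library, gave calls in pBIC against YC (-0.79, adjusted p = 0.00497) and in pBIC10 against pBIC (0.75, adjusted p = 0.0134).

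Birc3 (cIAP2), itself an NF-kB target, was at 146, 185, 171 and 168 CPM in YC, 303, 189 and 247 CPM in pBIC and 338, 382 and 339 CPM in pBIC10. Every lymphoma library was above every control, and the pBIC10 libraries were the 3 highest. Birc3 rose in pBIC (0.56 ± 0.17, adjusted p = 0.0138) and in pBIC10 (1.07 ± 0.17, adjusted p = 0.000186) against YC. The call in pBIC was lost without pBIC replicate 1 (0.38, adjusted p = 0.0612) or YC replicate 1 (0.46, adjusted p = 0.0552). Birc3 also passed in pBIC10 against pBIC (0.52 ± 0.18, adjusted p = 0.0455), but this call held in 5 of 21 alternatives, with adjusted p from 0.00847 to 0.169. It was lost on leaving out any 1 of the 3 pBIC10 libraries, pBIC replicate 2 or 3, or YC replicate 2, 3 or 4, and without pBIC replicate 2 the difference was 0.33. Of the 50-base sequences in Birc3 exons, 7.56% also occur in other genes, 4.19% in Gm7019 and 1.28% in Birc2, so a part of its reads could be counted elsewhere or dropped.

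Ratios of 2 members within a library do not depend on how libraries were scaled. The ratio of Ikbkb to Chuk counts was 1.73 to 2.6 in YC, 1.73 to 3.37 in pBIC and 6.60 to 8.02 in pBIC10. The ratio of Traf3 to Traf2 was 1.04 to 1.39, 0.956 to 3.05 and 6.32 to 6.72 in the same order. For Map3k14 to Traf3, the kinase and the adaptor that holds it for destruction, it was 0.729 to 1.04 in YC, 0.189 to 0.248 in pBIC and 0.0582 to 0.0629 in pBIC10. In each of these 3 ratios pBIC10 lay apart from both other groups, and for Map3k14 to Traf3 all groups were apart. Traf1 to Traf2 also fell into separate ranges, 1.85 to 2.23, 0.934 to 1.5 and 0.258 to 0.535. Birc3 to Birc2 was 1.55 to 1.94 in YC, 2.55 to 4.34 in pBIC and 3.13 to 3.94 in pBIC10, and the lymphomas overlapped. Ikbkb to Ikbkg was 3.04 to 5.07 in YC, 6.38 to 6.91 in pBIC and 5.82 to 6.23 in pBIC10. Ikbke to Tbk1, the kinase it acts with, was 0.796 to 1.53 in YC, 0.338 to 0.826 in pBIC and 0.311 to 0.414 in pBIC10, and pBIC overlapped both other groups. Over the 21 tests of 7 ratios in 3 comparisons, exact two-sided permutation tests gave a lowest adjusted p of 0.109. The smallest unadjusted p possible was 0.1 for 3 libraries against 3 and 0.0571 for 3 against 4, so none could pass.

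**Figure D4:**
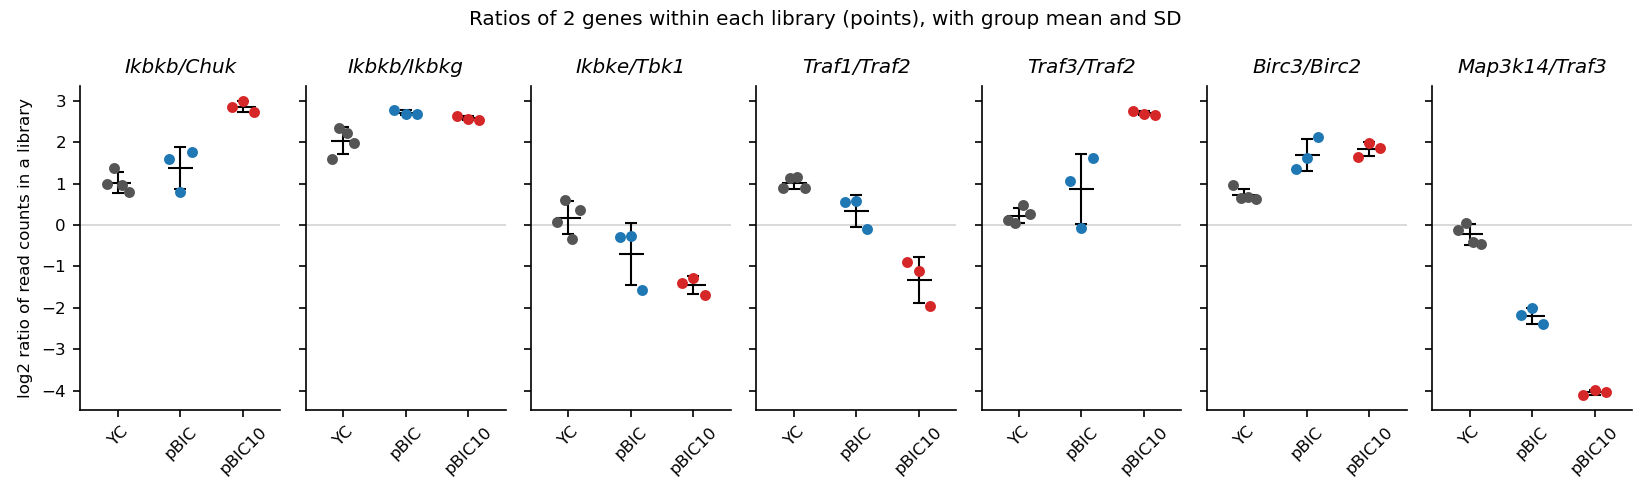
Log2 of the ratio of the counts of 2 genes in each library (vertical axis) of YC, pBIC and pBIC10. Points are libraries, and bars are the group mean and SD. In Ikbkb/Chuk, Traf3/Traf2 and Map3k14/Traf3 the 3 pBIC10 libraries lie apart from the other 7.

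Divided by the length of the principal transcript, the order of the members differed between the groups. In YC, Birc3 led at 62.9 CPM per kb, followed by Traf1 at 46.8 and Ikbkb at 39.4, and Ikbkg was last at 5.06. In pBIC, Birc3 at 92.4 and Ikbkb at 79.6 CPM per kb were followed by Chuk at 31.3. There Traf1 was at 19.9, Traf3 at 13.9 and Ikbke at 12.2, and Map3k14 was last at 4.91. In pBIC10, Birc3 at 132 and Ikbkb at 109 CPM per kb were followed by Traf3 at 40.3, and Map3k14 was last at 4.06, next to Ikbke at 4.68 and Traf1 at 5.33. The order depends on which transcript is taken as the gene's length. Over the members the SD was 3.56% to 22.9% of the mean in YC, 16.8% to 43.3% in pBIC and 5.19% to 34.6% in pBIC10. In pBIC, replicate 2 had the lowest level of 5 members (Ikbkb, Ikbkg, Map3k14, Traf3 and Birc3) and the highest of 4 (Chuk, Ikbke, Traf1 and Traf2). The male pBIC10 replicate 3 had the lowest level of 8 members in its group. Among 10025 genes compared over the 10 libraries, those with the profile most like Ikbkb were Carf (Pearson r = 0.980), Mcoln2 (0.979), Dhx33 (0.977), Afdn (0.975) and Prkci (0.975). These values are descriptions across libraries that share the same 3 groups.

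Upstream of the members, the receptors that recruit TRAFs were counted beside all tested genes. Of 19 tested, 3 rose and 7 fell in pBIC against YC (median -0.63), none rose and 10 fell in pBIC10 against YC (median -1.53), and 1 rose and 3 fell between the lymphomas (median -0.62). Of all tested genes 26.4%, 24.8% and 15.6% rose in these comparisons. The shares that fell were 27.7%, 26.9% and 15.1%, so the share of receptors that fell between the lymphomas was near that of all genes. The 1 that rose between the lymphomas was 0 without pBIC10 replicate 1 or 2, pBIC replicate 2 or 3, or YC replicate 3, and 2 without pBIC10 replicate 3. Tnfrsf13c, the BAFF receptor that engages TRAF3, was at 352 ± 34.8 CPM in YC (SD, n = 4), 168 ± 22.5 in pBIC and 55.4 ± 32.3 in pBIC10 (n = 3 each). It fell in pBIC10 against YC (-2.67 ± 0.39, adjusted p = 0.000182) and against pBIC (-1.60 ± 0.39, adjusted p = 0.0093). Tlr7, a sensor of single-stranded RNA, rose in pBIC against YC (3.43 ± 0.37) and fell in pBIC10 against pBIC (-3.69 ± 0.42). The lower count against YC in pBIC10 was 6 without YC replicate 4, and the higher count in pBIC was 1 without pBIC replicate 1. Of 12 ligands of the TNF family, 3 rose and 5 fell in pBIC against YC, none rose and 9 fell in pBIC10 against YC, and none rose and 7 fell in pBIC10 against pBIC, with medians of -0.71, -3.51 and -2.14. The 3 ligands that rose in pBIC, a share near that of all genes, were 1 without pBIC replicate 2, YC replicate 3 or YC replicate 4. Some ligands that fell were low in all groups. Cd40lg was at 3.55 CPM in YC and 0.0195 in pBIC10, and Tnfsf8 at 3.74 and 0.0932. Tnfsf14 was at 1.38 CPM in pBIC and 0.0 in pBIC10. In pBIC10 these lay at or under the floor of 3 counts, so the size of such falls, and of the medians, is uncertain. The part of T cells in the ligand falls was not tested. Lta, the lymphotoxin alpha gene, fell from 82.8 ± 14.8 CPM in YC to 22.8 ± 14.8 in pBIC and 5.21 ± 1.8 in pBIC10. Tnfsf13b, which encodes BAFF, the ligand of Tnfrsf13c, was at 0.475 ± 0.313, 9.33 ± 4.59 and 0.731 ± 0.301 CPM in that order.

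Of 35 genes that relay signals to the IKK complex, 6 rose and 13 fell in pBIC against YC, 3 rose and 18 fell in pBIC10 against YC, and 1 rose and 12 fell in pBIC10 against pBIC, with medians of -0.32, -0.46 and -0.19. Between the lymphomas the lower count was 6 without pBIC10 replicate 1 and 7 without pBIC10 replicate 2 or 3, and the higher count was 2 without pBIC10 replicate 3 and 4 without pBIC replicate 1. Traf4, another TRAF, was the relay that rose in pBIC10 against pBIC (1.57 ± 0.20, adjusted p = 8.95e-05). Its level was 88.2 ± 11.7 CPM in YC, 21.1 ± 2.54 in pBIC and 62.8 ± 14.2 in pBIC10. Rnf31, the catalytic subunit of the linear ubiquitin ligase that acts on NEMO, fell in pBIC (-1.29 ± 0.17) and in pBIC10 (-1.21 ± 0.17) against YC. Tank, an adaptor of TBK1 and IKKε, rose in pBIC against YC (0.98 ± 0.19) and fell in pBIC10 against pBIC (-1.16 ± 0.20). Of 20 brakes on IKK signalling, 4 rose and 9 fell in pBIC against YC, 1 rose and 6 fell in pBIC10 against YC, and 4 rose and 6 fell between the lymphomas. Their medians were -0.59, -0.35 and -0.08. Of all tested genes, 26.4% rose and 27.7% fell in pBIC against YC. These shares were 24.8% and 26.9% in pBIC10 against YC, and 15.6% and 15.1% between the lymphomas. The share of brakes that fell in pBIC10 against YC was therefore near that of all genes. Medians over all tested genes were 0.02, 0.01 and -0.01 in the same order. Otulin, which cuts linear ubiquitin chains, fell in pBIC against YC (-1.13 ± 0.20) and rose in pBIC10 against pBIC (1.09 ± 0.21). Without pBIC10 replicate 1 the counts of brakes between the lymphomas were 2 higher and 3 lower, without pBIC10 replicate 3 there were 3 lower, and without pBIC replicate 3 there were 2 higher. In pBIC against YC, 2 brakes rose without pBIC replicate 1 or YC replicate 2 and 1 without pBIC replicate 3.

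Downstream of the IKK complex, none of the 11 NF-kB subunits and inhibitors rose. In pBIC against YC 4 fell, in pBIC10 against YC 7 fell and in pBIC10 against pBIC 6 fell, with medians of -0.18, -0.85 and -0.62. The last count was 2 without pBIC10 replicate 1 and 3 without pBIC10 replicate 2 or pBIC replicate 3. Nfkb2, the precursor processed after IKK1 activation, was at 269 ± 45.7 CPM in YC, 140 ± 8.31 in pBIC and 84.8 ± 1.98 in pBIC10, and fell in all 3 comparisons. Rel, the subunit c-Rel, fell in pBIC (-2.27 ± 0.36) and in pBIC10 (-1.83 ± 0.35) against YC. Of 42 tested NF-kB targets, a list that holds Traf1 and Birc3, 4 rose and 26 fell in pBIC against YC, 3 rose and 33 fell in pBIC10 against YC, and 4 rose and 22 fell between the lymphomas. Their medians were -0.995, -1.71 and -0.66. Of all tested genes, 26.4%, 24.8% and 15.6% rose in these comparisons, and 27.7%, 26.9% and 15.1% fell. The 4 that rose were 2 without pBIC replicate 1 in pBIC against YC, and 2 without pBIC10 replicate 1, pBIC replicate 2 or pBIC replicate 3 between the lymphomas. Sod2, a mitochondrial antioxidant enzyme, rose in pBIC (0.93 ± 0.20) and in pBIC10 (1.31 ± 0.20) against YC. Cd83, a marker of activation on B cells and dendritic cells, fell in pBIC10 against YC (-3.92 ± 0.26) and against pBIC (-3.32 ± 0.26). Bcl2l1, which encodes the survival protein Bcl-xL, fell in pBIC (-2.70 ± 0.19) and in pBIC10 (-2.94 ± 0.19) against YC.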

How the data were processed

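Poly(A) RNA of sorted spleen cells from 10 mice was read as single-end reads, per the labels. The deposited values are raw read counts for each gene; featureCounts, FastQC and GRCm39 are named in the submitters' processing notes. The aligner, the annotation, the strandedness and all versions were not given in the sources used here. Of the count columns, 0 were unmatched to a sample.

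Counts were filtered (filterByExpr), scaled by TMM and fitted with 1 coefficient per group over the 10 libraries by edgeR 4.0.16 (R 4.3.3, quasi-likelihood, robust). P-values were adjusted by Benjamini-Hochberg over 17718 genes in each comparison. SE values are approximate, the absolute log2 fold change over the square root of the F statistic. The common dispersion was 0.0835. Titles give each library its own number, read here as separate mice, and replicates were numbered in accession order. Pearson correlations of replicates and chi-square tests of their counts showed no repeated deposit of 1 library. Members had 215 to 7147 counts in a library, and a floor of 3 counts was 0.154 to 0.246 CPM. The fit was tested on simulated data with known changes.

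Lengths and shared 50-base sequences came from GENCODE M21 (GRCm38), and promoters and gene order from RefSeq GRCm38.p6, matched by symbol. No coordinates were converted. Ratios were compared by exact permutation with scipy 1.17.1, and figures drawn with matplotlib 3.10.9 (Python 3.11.15). Members are always named; from each list up to 4 called genes per direction with the smallest adjusted p qualified, and those printed were picked after their values were seen. The 5 genes most like Ikbkb needed a mean of at least 5 CPM. Members and lists were chosen with earlier results of these data known. Results were recomputed with RLE, upper quartile and library total scaling, with DESeq2 1.42.0 and limma-voom (limma 3.58.1), without a filter and with at least 1 CPM in 3 libraries, on the 2 compared groups, with sex in the model, on females, without antigen receptor genes, under 2 stricter thresholds and without each library in turn.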

Additional observations from a re-analysis of the deposited data

Results flagged for a closer look

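The ratio of Birc3 to Birc2 counts in YC had 1 library far from the other 3. Replicate 1 was at 1.94, and the others lay between 1.55 and 1.60, a gap of 0.871 of the group's range and above Dixon's 95% limit for 4 values. Of 17 groups of 4 values checked this was the 1 that passed, and chance passes about 1 in 20.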

How the results depend on the processing

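The number of members called was 6 in pBIC10 against pBIC (4 to 8 on leaving out 1 library, 4 to 6 under the other alternatives), 6 in pBIC against YC (5 to 9, 3 to 7) and 8 in pBIC10 against YC (8 to 9, 6 to 9). In pBIC against YC, 3 members passed an adjusted p under 0.05 with at least a 2-fold change. Traf3 in pBIC against YC was -0.15 without pBIC replicate 3 and 0.42 without pBIC replicate 2, its range on leaving out 1 library. Birc2 in pBIC10 against YC, near 0 throughout, was 0.0 with no filter on low counts, 0.04 in females alone and 0.01 without pBIC10 replicate 3 or YC replicate 2 (range -0.19 to 0.01 on leaving out 1 library). The log2 ratio Birc3/Birc2 in pBIC10 against pBIC was -0.03 without pBIC replicate 1 (range -0.03 to 0.35). With 20 genes on each side of Traf3 the median in pBIC against YC was 0.11, and with 5 it was 0.77 in pBIC10 against YC, both chosen after seeing the data. For these values the cause was not tested. At an adjusted p under 0.01, 3145 genes in all were called in pBIC10 against pBIC, and 5440 at 0.05. No paired analysis was possible because the replicate numbers were given in accession order and pair no libraries.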
